A study of Mus musculus with 2 samples.

Results

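The HoxD cluster was examined for binding of CTCF, a zinc-finger protein that marks insulators and the anchors of chromatin loops, in kidney of newborn mice. The members are 10 listed protein-coding genes on mouse chromosome 2, namely Evx2, Hoxd13, Hoxd12, Hoxd11, Hoxd10, Hoxd9, Hoxd8, Hoxd3, Hoxd4 and Hoxd1, of 21755 protein-coding genes annotated on the 20 chromosomes used. The window chr2:74618310-74815142 (mm10 assembly) runs from 50 kb before Hoxd13 to 50 kb after Hoxd1 and holds all 10 genes. Of the 65482 peaks of the optimal list, 13 had their summit in this window. The window and genes were listed by name and position, not by their signal. The members were, however, chosen with earlier results of these data known.

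Chromatin was taken from whole kidney of B6NCrl mice at age 0 days after birth and precipitated with an antibody to CTCF. The 2 libraries form 1 group, are numbered as biological replicates 1 and 2, and carry the same biosample and donor identifiers in the labels. The spread between them may therefore be technical, and with no second group nothing was tested between conditions. Whole kidney mixes many cell types, and peak lists hold no expression, so the tissue label was not checked against marker genes and binding in 1 cell type cannot be told apart from binding in all. No read counts came with the lists, so the depth behind each peak is unknown.

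Hox genes encode homeodomain transcription factors that set position along the body axis. They lie in clusters in which gene order follows the order of expression, with group 1 genes acting early and toward the head and group 13 genes late and toward the tail. HoxD sits between large gene-poor regions that hold enhancers, a centromere-side landscape known for control in digits and genitals and a telomere-side landscape known for control in the proximal limb and other organs. CTCF sites inside the cluster are known to help separate these landscapes, and paired sites in convergent orientation, with motifs that point at each other, commonly anchor loops. Among the members, Hoxd11 acts with its paralogs in formation of the metanephric kidney.

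The sequences under the peaks are given first, because motif direction is what the loop models read. A CTCF matrix of 19 bases was learned from optimal peaks outside chromosome 2 and had the most frequent bases TGGCCACCAGGGGGCGCTA. A match is a score passed by 1 in 10000 positions of control windows 2 kb from summits, searched on both strands with its centre within 100 bp of the summit. The HoxD peaks are numbered 1 to 13 in order along the chromosome. Peaks 1, 9 and 12 held a match, and the others printed had the highest scores among the peaks that did not. Each is read 5′ to 3′ along the strand that scored best (GRCm38.p6, the mm10 assembly), and capitals mark the 19 scored bases.
Peak 1, match, reverse strand, chr2:74655518-74655546: tcctgCTGCCGCTAGGGGGCGCCCcgggg
Peak 9, match, forward strand, chr2:74702387-74702415: gcattTGGCCACTAGAGAGCGCTGttgct
Peak 12, match, forward strand, chr2:74715913-74715941: agcttTGTCCAGGAGGAGGCGCTGtagga
Peak 2, no match, reverse strand, chr2:74661992-74662020: cgaggAAAACAGATGGGGGCGCCAaatga
Peak 4, no match, reverse strand, chr2:74673169-74673197: ccaaaCGCCCAGGAGATGGCGAGCgtgct
Peak 5, no match, forward strand, chr2:74686472-74686500: ttctaCAGCCACACGAGGGCGCGCtcatg
Peak 7, no match, reverse strand, chr2:74694220-74694248: cttacTGATCTCTAGGCGGCGCTCgcggg
The match of peak 9 shared 15 of 19 bases with the most frequent ones, that of peak 12 shared 14 and that of peak 1 shared 13. All 3 matches lay outside soft-masked repeats and all 3 held at least 1 CpG, the dinucleotide whose methylation can block CTCF. Neither is a trait of HoxD, since the matrix was learned from unmasked sequence and its most frequent bases include a CpG. The shares among all matches are not given here.

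The 13 peaks crowded toward the Hoxd13 end of the cluster. They spanned 60.6 kb, from a summit inside Evx2 to a summit in introns of the Hoxd3 and Hoxd4 records. None lay in the 99.0 kb from there to the end of the window, which holds most of Hoxd3 and Hoxd4 and all of Hoxd1, and none in the 37.2 kb from the window's start to peak 1. The density was 6.60 peaks per 100 kb in the window and 21.5 per 100 kb between the first and last summit, against 2.49 per 100 kb over the 20 chromosomes and 2.75 on chromosome 2. Of all optimal peaks, 0.582% opened a stretch of 60.6 kb with at least 13 peaks. The length and the count were taken from HoxD itself, so it meets them by construction and this share is no test. The density of 21.5 is likewise raised because its interval was cut at the outermost HoxD summits. Neighbouring HoxD summits lay 200 bp to 13331 bp apart, with a median of 4814 bp against 14170 bp for neighbouring summits of the whole list. Of the 13 summits, 7 lay inside a member's gene record and 6 between them.

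**Figure D1:**
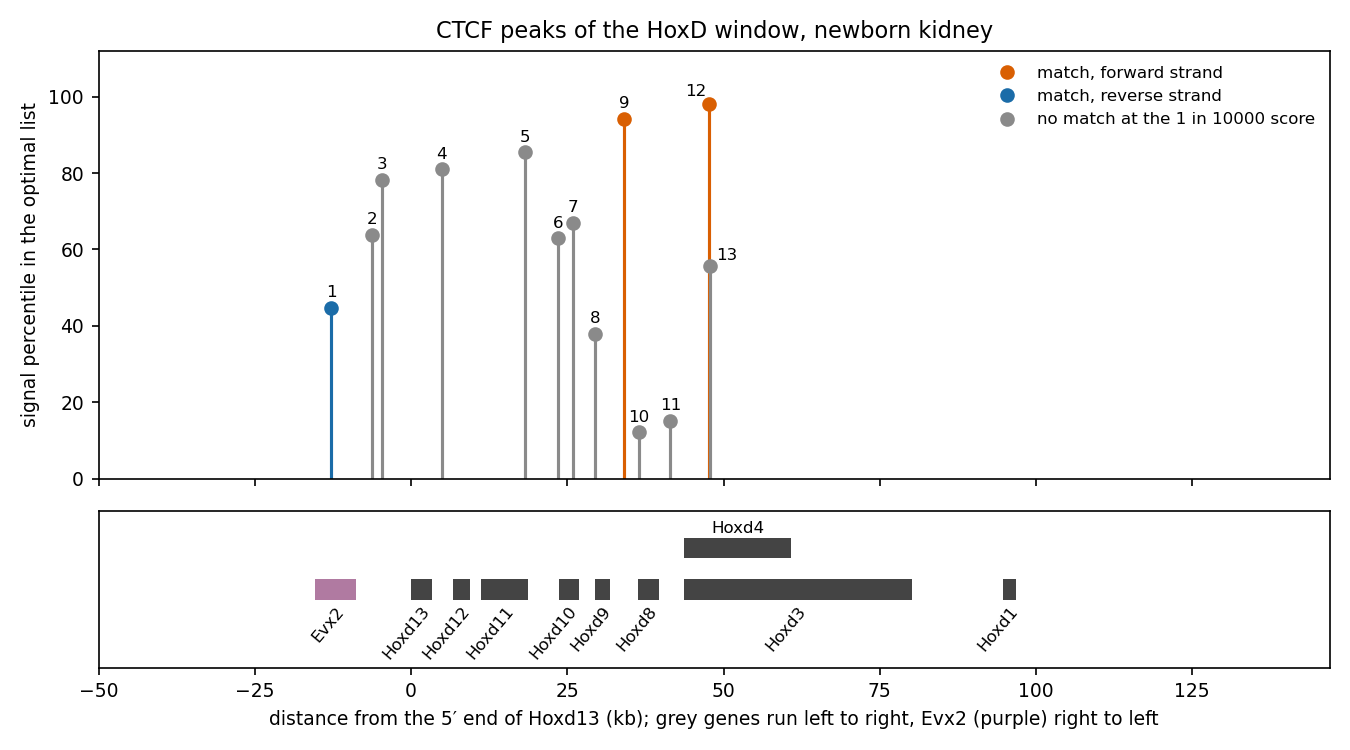
Signal percentile of the 13 HoxD peaks within the optimal list (vertical axis) against distance from the 5′ end of Hoxd13 in kb (horizontal axis), with the gene records below and peak numbers above the points. Colours give the strand of a matrix match: peak 12, at 98.0, and peak 9, at 94.2, are forward, peak 1 is reverse, and no peak stands right of peak 13.

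Signal is given as the percentile of the authors' signal value within the optimal list, so 50 is a middling site and 100 the strongest. The median of the 13 peaks was 63.9, and 9 of them lay above 50. Only peaks 9 and 12 lay above 90. The lowest were peaks 10 and 11, at 12.2 and 15.2.

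On the side of Evx2, a homeobox gene of the even-skipped family transcribed away from the Hox genes, lay 3 peaks. Peak 1 (chr2:74655475-74655635) had its summit in an untranslated region of Evx2, 3867 bp from the nearest Evx2 start, at percentile 44.7. It ranked 32566 in replicate 1 and 30728 in replicate 2 of 300000 listed sites each. Peaks 2 (chr2:74661908-74662096) and 3 (chr2:74663618-74663856) lay in the gap between Evx2 and Hoxd13, a gene required for digits and genitals. Peak 2 stood at percentile 63.9, with ranks of 24385 and 21630 in replicates 1 and 2, and peak 3 at 78.2, with ranks of 12535 and 16114. The signal of these 3 peaks thus increased toward Hoxd13 in the optimal list and in both libraries.

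Between Hoxd13 and Hoxd12, a posterior limb gene, peak 4 (chr2:74673020-74673288) stood at percentile 81.0, with ranks of 14652 and 9728. Its summit lay 1850 bp before the Hoxd12 start. Peak 5 (chr2:74686361-74686626) lay in an exon of Hoxd11 and an intron of the non-coding transcript Gm28309, at percentile 85.4, with ranks of 10966 and 8708. Its summit lay 4171 bp from the nearest Hoxd11 start and so toward the Hoxd10 end of the record. No summit lay between peaks 4 and 5, which are 13331 bp apart, the widest interval inside the group.

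Hoxd10, which patterns the lumbosacral spinal cord and hindlimb, had 2 peaks. Peak 6 (chr2:74691703-74691855) lay 151 bp before its start, at percentile 63.0, with ranks of 24494 and 23701. Peak 7 (chr2:74694157-74694345) lay in a coding exon of Hoxd10, at percentile 67.0, with ranks of 22933 and 19822. These 2 peaks had similar signal in both libraries. Peak 8 (chr2:74697605-74697934) lay 43 bp inside the start of Hoxd9, another posterior patterning gene, in its untranslated region. It was weaker, at percentile 37.9, with ranks of 42067 and 36533.

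The gap between Hoxd9 and Hoxd8 held peak 9 (chr2:74702251-74702538), at percentile 94.2, with ranks of 4561 and 3490. Its summit lay 2207 bp from the Hoxd8 start. The next 2 peaks were the weakest of the cluster. Peak 10 (chr2:74704617-74704946) lay in Hoxd8, 123 bp from a start, with ranks of 53972 and 62526. Peak 11 (chr2:74709606-74709935) lay between Hoxd8 and Hoxd3, 2156 bp before the first Hoxd3 start, with ranks of 79795 and 42277. Both lay in introns of Hoxd3os1, the antisense non-coding gene of this interval.

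The strongest HoxD site was peak 12 (chr2:74715794-74716091), at percentile 98.0, with ranks of 3906 and 882. It lay in an exon of Hoxd3os1 and in introns of the overlapping Hoxd3 and Hoxd4 records, which start beside each other in the annotation. Hoxd3 and Hoxd4 are anterior genes that pattern the cervical vertebrae. Peak 13 (chr2:74716058-74716217) had its summit 200 bp further on and 3 bp from the Hoxd3os1 start, at percentile 55.7. The intervals of peaks 12 and 13 overlap, so some reads may count toward both.

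The libraries ranked most of these sites alike. Of the 13 peaks, 11 overlapped the upper set of both libraries, that is, each library's 65482 strongest sites, against 78.6% of all optimal peaks. The same number, 11, were also in the conservative list, against 83.8% of all optimal peaks. Both counts were near the share of the whole list. The exceptions were peaks 11 and 13 in both counts. Peak 13 ranked 90997 in replicate 1 and 22159 in replicate 2, the widest split of the cluster by number of places. Both exceptions were in the upper set of replicate 2 and outside that of replicate 1.

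**Figure D2:**
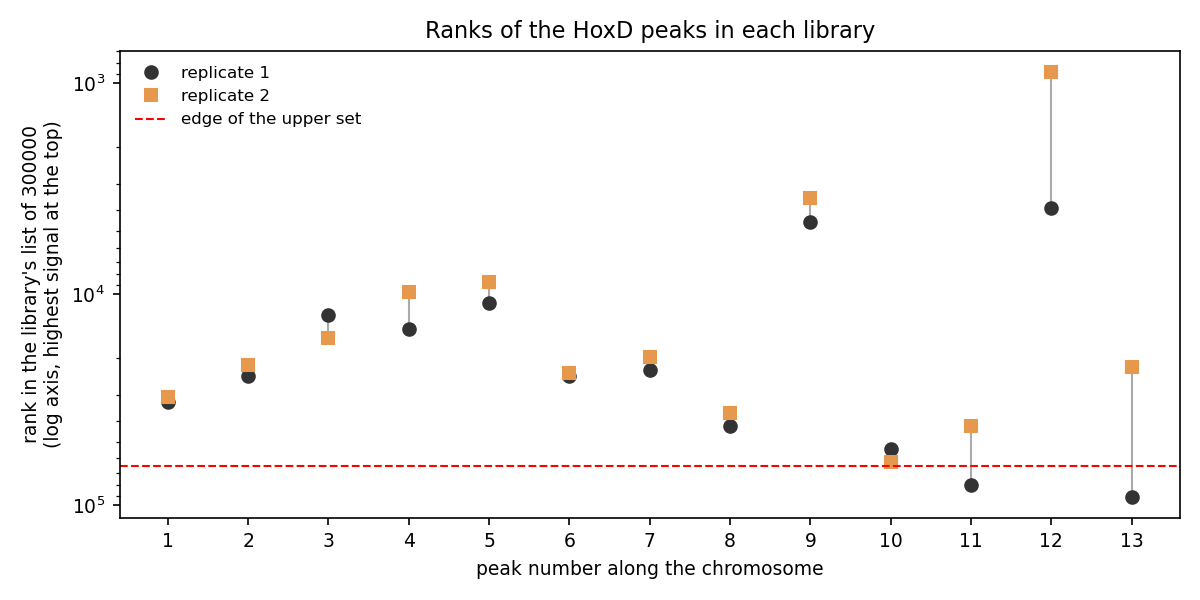
Rank of each HoxD peak in replicate 1 (circles) and replicate 2 (squares), on a log axis with the strongest sites at the top, against the peak number along the chromosome. The dashed line is the edge of each library's upper set, at rank 65482, and only peaks 11 and 13 have a library below it.

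Of the 10 HoxD genes, 3 had a promoter peak, a summit within 1000 bp of an annotated transcription start, against 39.4% of all protein-coding genes. They were the neighbours Hoxd10, Hoxd9 and Hoxd8, with promoter peaks at percentiles 63.0, 37.9 and 12.2. The other 7 genes had their nearest summit 1850 bp to 46847 bp from a start. Hoxd12 was the closest of these and Hoxd1, an anterior gene with a role in sensory neurons, the farthest. Evx2 was 2444 bp away, Hoxd3 2156 bp, Hoxd4 2158 bp, Hoxd11 4171 bp and Hoxd13 4556 bp. With promoters of 2500 bp, 7 of the 10 had a peak, against 49.9% of all protein-coding genes. Hoxd3 and Hoxd4 entered that count through the same peak, 11, at percentile 15.2. In the upper-signal 50% of the list only Hoxd10 had a promoter peak within 1000 bp, against 19.8% of all protein-coding genes. The first Hoxd4 start belongs to a transcript that begins beside Hoxd3, so its distance was measured to that start and not only to the Hoxd4 start used in the RefSeq table. Member promoters were rich in CpG, with observed-to-expected ratios of 0.58 to 0.91 and a median of 0.72 against 0.56 for all protein-coding genes.

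The promoter of Hoxd10 is shown as the member start whose peak had the highest signal. RefSeq entries were found for all 10 members, with 11 start sites in all, and the summits of peaks 6 and 8 lay in 2 of them. None of the 11 windows of 300 bases held a matrix match, against 4.02% of RefSeq promoters. The 250 bases before the RefSeq start of Hoxd10 (GRCm38.p6, forward strand, chr2:74691641-74691890) follow, with the summit of peak 6 and 10 bases on each side in capitals.
Hoxd10 promoter: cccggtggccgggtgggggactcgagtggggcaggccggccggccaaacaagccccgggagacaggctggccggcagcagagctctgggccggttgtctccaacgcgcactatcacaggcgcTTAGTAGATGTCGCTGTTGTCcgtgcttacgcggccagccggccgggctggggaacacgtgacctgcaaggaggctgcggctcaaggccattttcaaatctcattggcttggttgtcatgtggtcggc
The best score within 100 bp of this summit was -3.0, the lowest of the 13 peaks, while the peak itself lay above the median of the list. No match says only that no stretch of the searched sequence reached the match limit.

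Matrix matches were few in HoxD for the signal of its peaks. A match lay under 3 of the 13 peaks, against 63.9% of all optimal peaks and 2.53% of control windows. Peak 9, at a score of 16.3, and peak 12, at 15.4, read forward, along the direction of Hox transcription, and peak 1, at 17.6, read in reverse. Forward matches made up 49.8% of those in the whole list. The median match score was 16.3 in HoxD and 16.7 over all matches, and the median distance from match centre to summit was 7.0 bp against 6.0 bp. The 10 peaks without a match had a median percentile of 63.5, against 33.2 for all optimal peaks without one. The 3 with a match had a median of 94.2, against 60.9. The differences from the whole list were not tested.

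Of the 10 HoxD peaks without a match, 6 had scores from 7.2 to 11.9. With the limit of 12.7 lowered to 6.5, the score passed by 1 in 1000 control positions, 9 of the 13 had one, against 86.0% of all optimal peaks and 15.4% of control windows. This limit was chosen after the scores were seen. Among the 9, peaks 1, 2, 4, 7 and 8 read in reverse and peaks 5, 9, 12 and 13 read forward. Forward directions thus stood on the Hoxd8 to Hoxd3 side and reverse ones on the Evx2 side, with forward peak 5 among the reverse ones. At the stricter score of 1 in 100000, or with a matrix learned from all sequence, 0 of 13 had a match, against 12.8% and 14.6% of all optimal peaks.

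HoxD peaks lay in CpG-rich sequence. In the 250 bp on each side of the summits the median CpG ratio was 0.57 and the median GC content 57.9%, against 0.22 and 46.9% for all optimal peaks. A ratio of 0.5 or more was found at 9 HoxD peaks, of which 2 had a match, against 31.7% with a match among all optimal peaks at such a ratio. CpG content thus moved with the match share, and its part in the low HoxD share was not tested.

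**Figure D3:**
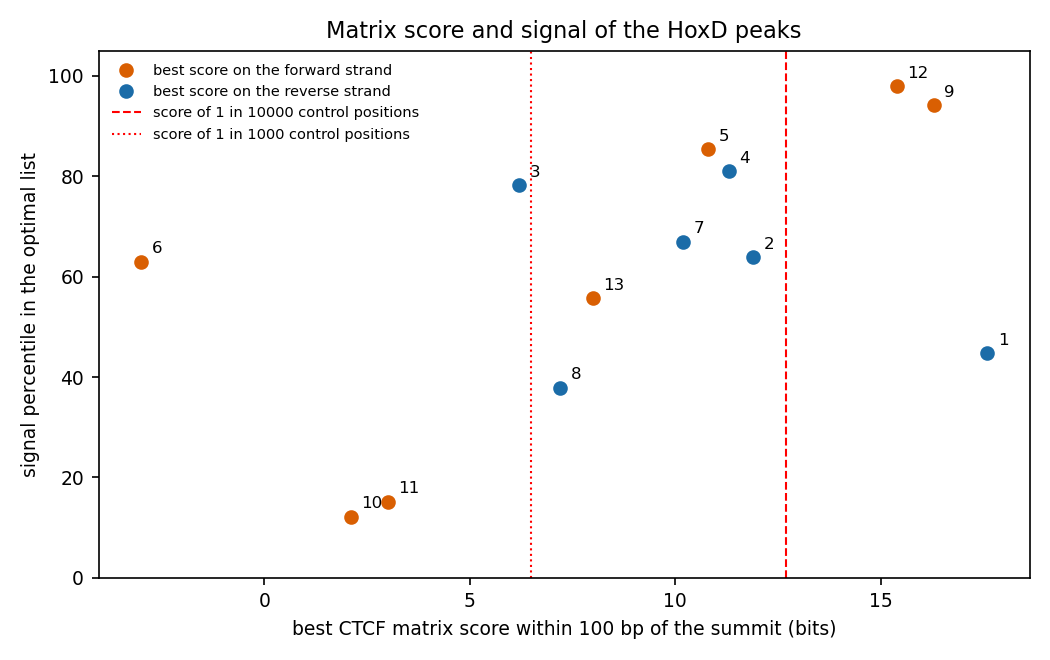
Best CTCF matrix score within 100 bp of the summit, in bits (horizontal axis), against signal percentile (vertical axis) for the 13 HoxD peaks, coloured by the strand of the best score. The dashed line is the match limit of 12.7, with peaks 1, 9 and 12 to its right, and the dotted line the limit of 6.5, with peaks 3, 6, 10 and 11 to its left.

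The anterior end of the cluster was searched in the relaxed lists, which were not thresholded for reproducibility. In the 99.0 kb above the last HoxD summit these held 24 sites in replicate 1, 20 in replicate 2 and 20 in the pooled list. The strongest of them that overlapped no optimal peak ranked 70848 in replicate 1, 97408 in replicate 2 and 75453 in the pooled list, each past rank 65482. Only 1 site of the window ranked in the highest 100000 of both libraries without being in the optimal list. It lay in an untranslated region of Hoxd4 with its summit at 74728978, ranked 70848 in replicate 1 and 98987 in replicate 2, and had no match. Each library also had a site in its highest 100000 within 1000 bp of a Hoxd3, Hoxd4 or Hoxd11 start. The best ranks in replicates 1 and 2 were 86748 and 90087 for both Hoxd3 and Hoxd4, and 98274 and 66670 for Hoxd11. These ranks were taken in each library and need not belong to the same site. Within 1000 bp of the Hoxd1 start the relaxed lists had 2 sites in replicate 1, with a best rank of 97797, and 1 in replicate 2, at rank 200777. Hoxd13 and Evx2 had no site within 1000 bp of a start in any of the 3 relaxed lists.

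Wide intervals without an optimal peak lay on both sides of the 13 HoxD peaks. The first summit below the group lay 355 kb away, and 1.25% of gaps between neighbouring summits in the whole list were at least as wide. The next summit above lay 202 kb away, with 2.97% of gaps as wide. These were the widest gaps of the window and its flanks of 1 Mb. The upper gap starts inside the Hoxd3 and Hoxd4 records. Its first 49.0 kb lies within the HoxD gene span and holds all of Hoxd1. The gap on the centromere side holds Lnpk, which encodes a protein of endoplasmic reticulum junctions, and the gap on the telomere side holds Mtx2, which encodes a mitochondrial import protein. Neither gene had an optimal peak in its record or within 1000 bp of a start. The nearest peaks outside the window were one at percentile 89.7, which lay 317849 bp below it, and one at 7.57, which lay 102896 bp above it and was not found in replicate 2. The nearest inside it were peaks 1 and 13.

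The nearest matches on the far sides of these gaps read toward the cluster, and those beyond them read both ways. Peak 1 reads in reverse, toward the centromere side, and the nearest optimal peak there, at −367.8 kb from the Hoxd13 5′ end (chr2:74300329-74300584), had a forward match with a score of 21.1. It ranked 7472 in replicate 1 and 6502 in replicate 2. Peaks 9 and 12 read forward, and the nearest match on the telomere side, at 296.2 kb (chr2:74964381-74964671), read in reverse with a score of 19.6. That peak stood at percentile 95.2 and ranked 7707 and 852. A weaker peak at 309.2 kb, with a score of 14.8, read forward, away from the cluster, and a strong one at 387.1 kb, at percentile 94.5, read in reverse. Within 500 kb of the window, 1 match on the centromere side read forward and 3 read in reverse, away from the cluster. On the telomere side 3 matches read forward and 6 in reverse. The files hold no contact data, so whether these sites meet was not tested.

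Averaged over 1 Mb, the flanks were less dense than the cluster. This did not hold everywhere. The 100 kb from 900 to 1000 kb beyond the Hoxd13 5′ end held 14 peaks, against 10 from 0 to 100 kb. The first 1 Mb on the centromere side held 20 peaks, at 2.00 per 100 kb with a median percentile of 44.2. The first 1 Mb on the telomere side held 41, at 4.10 per 100 kb with a median of 37.6. Of these, 4 on the centromere side and 13 on the telomere side lay within 500 kb of the window. Matches lay under 75.0% of the centromere-side peaks, 8 forward and 7 reverse, and under 63.4% of the telomere-side peaks, 10 forward and 16 reverse. The median CpG ratios were 0.19 and 0.28. Both match shares were higher than the 23.1% of HoxD, and both CpG ratios were lower, differences that were not tested.

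**Figure D4:**
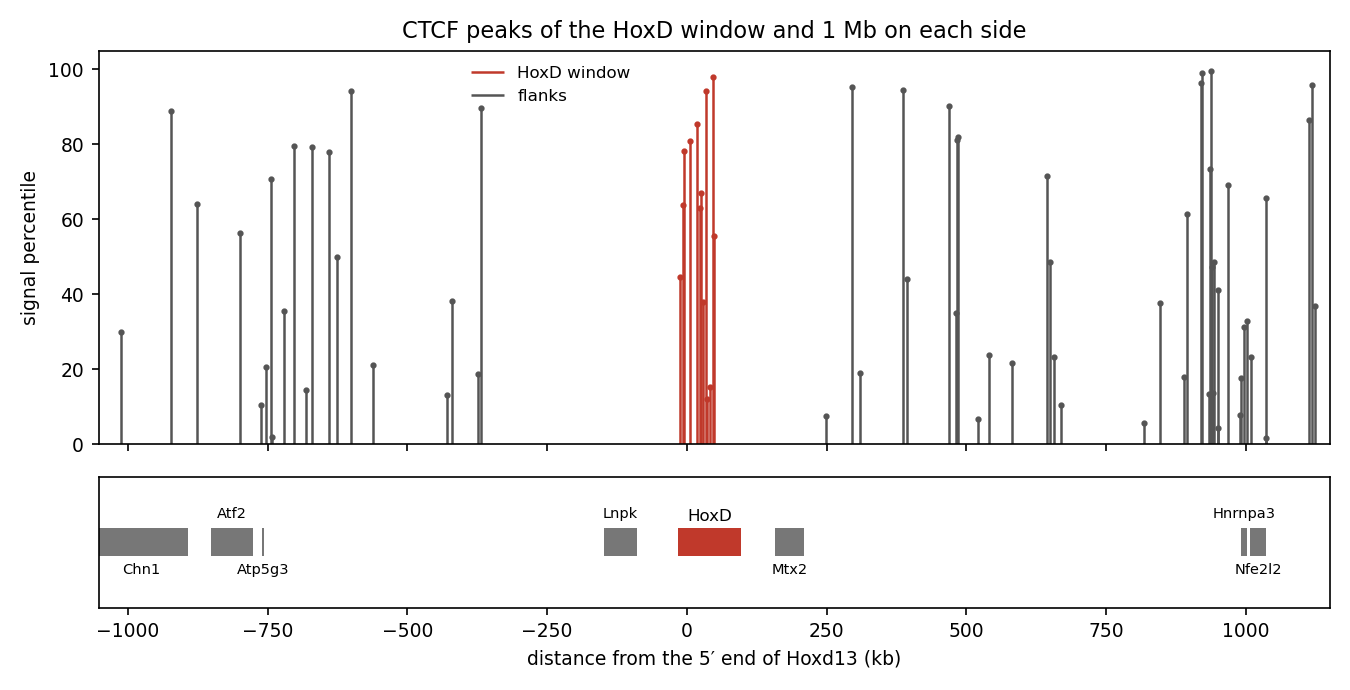
Signal percentile of every optimal peak in the HoxD window (red) and in the 1 Mb on each side (grey) against distance from the 5′ end of Hoxd13 in kb, with protein-coding genes below. The 13 HoxD peaks stand between intervals of 355 kb and 202 kb without a peak, which hold Lnpk and Mtx2. The interval of 202 kb starts inside the cluster and also holds Hoxd1.

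The other Hox clusters share ancestry and gene order with HoxD, and their values are set beside it without a test. Within the span of the genes HoxD had 11.6 peaks per 100 kb, against 7.99 in HoxA, 12.1 in HoxB and 6.05 in HoxC. These spans are not alike, because they include the Evx genes of HoxA and HoxD. Evx1 reaches −57.5 kb from the Hoxa13 5′ end, while Evx2 reaches only −15.3 kb from that of Hoxd13. The lower HoxA density thus depends partly on where its span was cut. Matches lay under 23.1% of the HoxD peaks, against 30.8% in HoxA, 47.6% in HoxB and 28.6% in HoxC, so each stood below the share of the whole list. The stretch at the anterior end of the gene span with no summit was 49.0 kb in HoxD, against 31.1 kb in HoxA, 22.1 kb in HoxB and 23.1 kb in HoxC. Promoter peaks were found at 3 of 10 HoxD genes, against 3 of 12 in HoxA with Evx1, 2 of 10 in HoxB and 4 of 9 in HoxC. Of the paralogs of the 3 HoxD genes, Hoxa10, Hoxc10 and Hoxc8 had a promoter peak, at percentiles 89.0, 94.3 and 5.47, and Hoxb8 and all of Hoxa9, Hoxb9 and Hoxc9 had none. Hoxc13 was the only group 13 gene with one, at percentile 11.7.

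**Figure D5:**
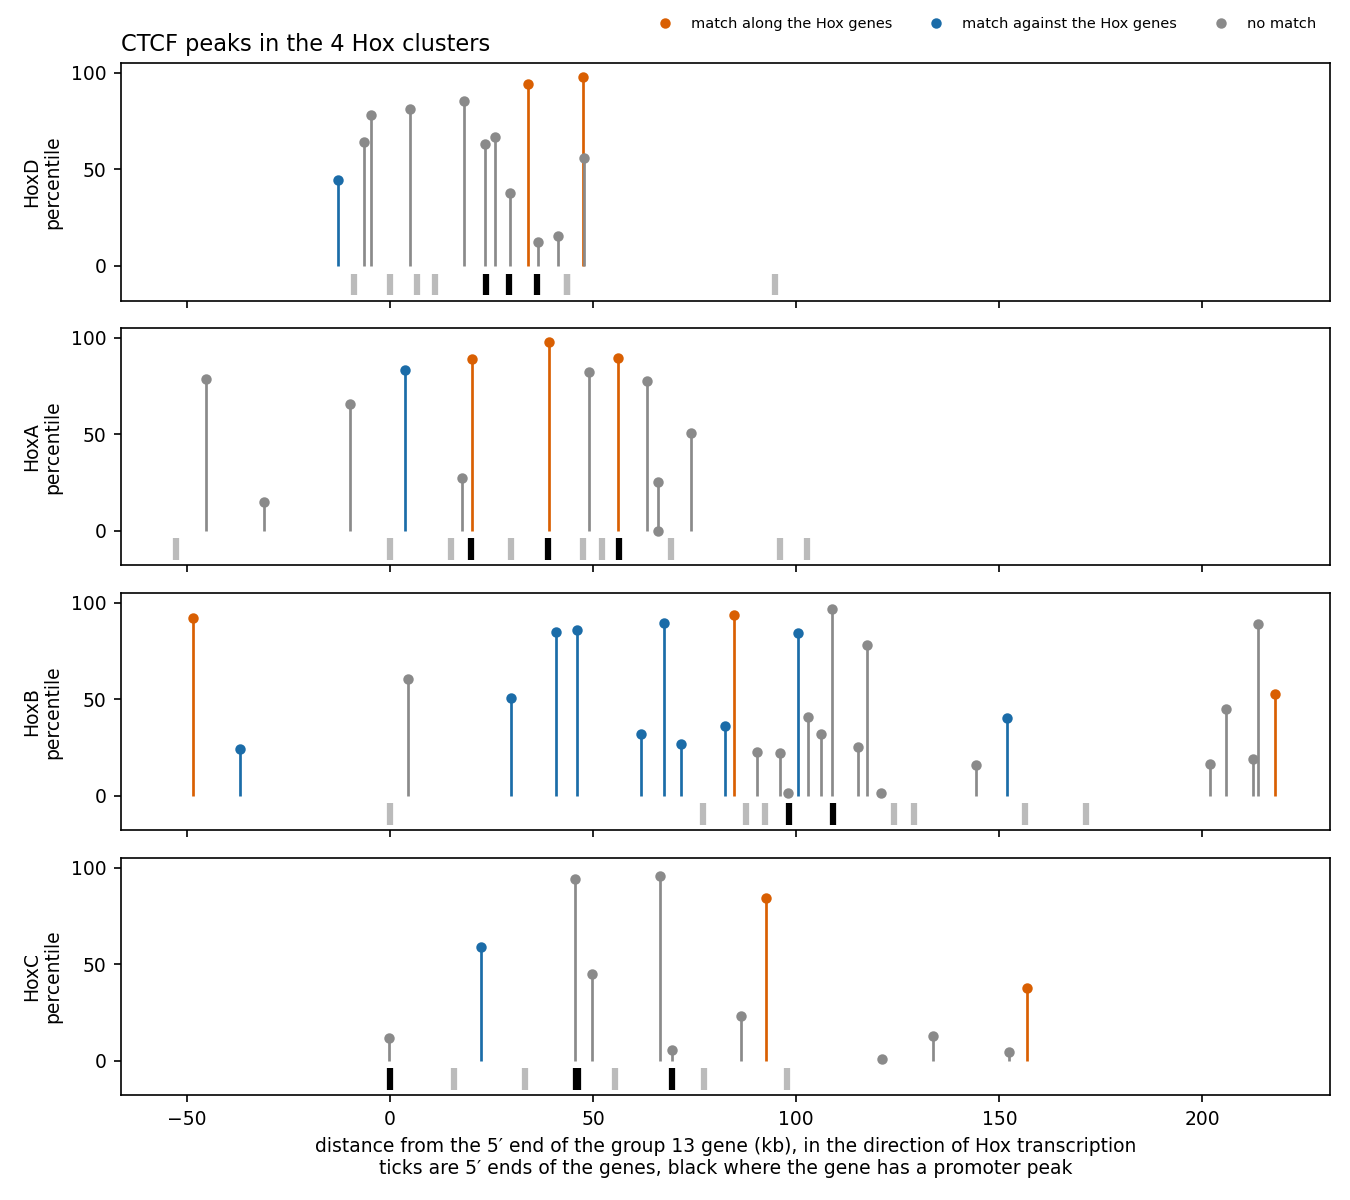
Signal percentile of optimal peaks in the gene span plus 50 kb on each side of HoxD, HoxA, HoxB and HoxC, against distance from the 5′ end of the group 13 gene in kb along the direction of Hox transcription. Colours give the direction of a matrix match, ticks mark the 5′ ends of genes, and black ticks are genes with a promoter peak, 3 of 10 in HoxD.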

How the data were processed

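Of the 5 narrowPeak lists on mm10 that the authors deposited, 2 are relaxed lists of 1 library each, 1 is a relaxed list of both pooled, and the optimal and conservative lists were thresholded by irreproducible discovery rate, per the notes deposited with them. The relaxed lists were called with 1 further alignment file. The aligner, peak caller and thresholds are not given in the sources used. The signal value of each peak is the authors' own, and since its scale moves with depth, which is unknown, only its order inside a list was used.

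Coordinates are 1-based. Genes came from GENCODE M21 and sequence from GRCm38.p6, the same assembly; 12 optimal peaks on other contigs were left out of shares. A library peak was matched to an optimal peak by at least 1 bp of overlap and the nearest summit. The matrix was learned in 6 rounds from unmasked sequence under peaks of 19 chromosomes, and was tested on simulated data. Every member and every peak of the window is named, and in the flanks the protein-coding genes and the 5 strongest peaks of each side. The members, lists and alternatives were chosen with earlier results of these data known. Python 3.11.15, numpy 2.4.6, pandas 2.3.3, pysam 0.24.0 and samtools 1.23.1 were used.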

Additional observations from a re-analysis of the deposited data

How the results depend on the processing

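Of the 52 recomputed values, 36 stayed close to those reported, within 1.5 times for counts. The window held 11 peaks without replicate 2 and 15 without replicate 1, and 3 genes had a promoter peak and 3 peaks a match in either library alone. The median percentile of HoxD peaks, 63.9, was 65.0 without replicate 2, 66.2 without replicate 1 and 65.4 with the stronger peak kept of each close pair. The SD between the 2 libraries' medians was 0.836. In the highest-signal 50% of the list the median was 56.5 on that list's own scale, 1 gene kept a promoter peak, and the flanks held 10 peaks on the centromere side and 15 on the telomere side; fewer peaks enter there by construction. Promoters of 2500 bp gave 7 genes, with Hoxd3 and Hoxd4 counted through the same peak. Flanks of 500 kb held 4 and 13 peaks. The matrix results depended most on the setting. There were 0 matches and 0 forward at the score of 1 in 100000. At the score of 1 in 1000, chosen after seeing the data, there were 9 matches with 4 forward. The matrix from all sequence also gave 0 and 0, but it holds other most frequent bases and is not a variant of the same motif measure. The cause of these shifts was not tested. No paired analysis was possible because the labels give 1 group. Depth is unknown, so sites missing from the lists may be bound below their threshold.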

Other observations

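The strongest sites of the flanks lay toward the far end of the telomere side, between Mtx2 and Hnrnpa3, which encodes an RNA-binding protein. Nfe2l2, the next gene, encodes the oxidative stress regulator Nrf2. Between 900 and 1000 kb from the Hoxd13 5′ end lay 14 peaks, the most of any 100 kb interval of the flanks. The strongest, at 937.6 kb (chr2:75605739-75606035), stood at percentile 99.7, ranked 222 in replicate 1 and 210 in replicate 2, and had no match. Others at 922.1 and 920.5 kb stood at percentiles 99.0 and 96.3, and both matches read in reverse, toward HoxD. A peak at 1118.0 kb stood at percentile 95.9 and read forward. Hnrnpa3 and Nfe2l2 had promoter peaks, at percentiles 17.8 and 65.7.

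On the centromere side the strongest peak, at −601.5 kb, stood at percentile 94.2, ranked 2163 in replicate 1 and 7189 in replicate 2, and had no match. The next by signal, beside the peak at −367.8 kb, lay at −922.5 kb in an intron of Chn1, a gene for a Rac-regulating protein of axon guidance, at percentile 88.9 with a reverse match. Peaks at −702.5 and −669.6 kb stood at percentiles 79.7 and 79.3, and the first of these read forward. Chn1 had a promoter peak at percentile 30.1, and Atf2 and Atp5g3 had none.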
